A study of Caenorhabditis elegans with 4 samples.

Results

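The regions described here are the binding regions of HAM-1 on chromosome IV of Caenorhabditis elegans, taken as every region that the authors' combined list places on that chromosome. They number 1010 of the 5713 regions of the list. The assay was ChIP-seq, in which DNA bound to a protein is pulled down with an antibody and sequenced. It was applied to fed hermaphrodites in the first larval stage (L1), kept at 20 °C. All libraries came from strain OP102, in which an unc-119 (ed3) mutant carries the transgene wgIs102, a ham-1 gene fused to TY1, EGFP and FLAG tags together with a functional unc-119 copy. An antibody against GFP pulled down the fusion protein. The study has 2 ChIP libraries and 2 input libraries (chromatin set aside before the antibody step), each numbered replicate 1 and 2. Whole larvae were used, so the lists pool all cells that make the fusion protein. The transgene was introduced by particle bombardment and the line was not outcrossed, per the labels.

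HAM-1 has a winged-helix domain and acts when neuroblasts divide asymmetrically, where it affects the fates and sizes of the daughter cells. C. elegans chromosomes have no single centromere. On the autosomes a gene-rich centre with little recombination lies between arms that recombine more and hold more repeats. Chromosome IV is known for its clusters of piRNA genes, which encode the small RNAs that silence transposons in the germline. A RefSeq gene table of assembly WBcel235 lists 14714 of 15363 piRNA genes there, and also ham-1 itself. That assembly is not the one of the lists, so no gene was placed against a region and no sequence is shown.

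Positions are 1-based on the WormBase WS220 genome, as the lists give them. The lists came from the PeakSeq caller, which here left only the bounds of each region and its q-value, with no read count or height. Replicate 1 held 850 regions on chromosome IV and replicate 2 held 475. Sequencing depth is unknown, and a longer list need not mean more binding. Support means an overlap of 1 bp or more with a region of a replicate list. The other autosomes are I, II, III and V. Intervals are 95% intervals for counting error. They treat regions as independent, although neighbours are not. No test was run, because regions of a list are not replicates of a condition.

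By density of regions, chromosome IV stood in the middle of the autosomes in the combined list and in replicate 1, and near the top in replicate 2. It carried 57.8 combined regions per Mb of called span (exact Poisson interval 54.3 to 61.5), against 58.2 (56.4 to 60.1) on the other autosomes together. The ratio was 0.993 (0.927 to 1.06). Chromosomes III and I were denser, at 74.2 and 65.4 regions per Mb, and II and V sparser, at 53.7 and 45.7. The interval of the ratio of IV to II, 0.982 to 1.18, included 1, so these neighbours in the order were not set apart by counting error.

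In replicate 1 the density on IV was 48.6 regions per Mb, again close to the 48.4 of the other autosomes (ratio 1.01, 0.932 to 1.08). In replicate 2 it was 27.2 against 21.6 (ratio 1.26, 1.13 to 1.40). There IV held 21.1% of the list on 17.4% of the span, and III alone was denser, at 30.1 regions per Mb. The combined regions covered 549 kb of IV, or 3.14% of its span, against 3.25% on the other autosomes. Counted by genes instead, IV had 30.8 combined regions per 100 protein-coding genes and the other autosomes 27.1. IV stayed in the middle of the order, below III (38.7) and I (34.3) and above II (23.8) and V (19.1).

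**Figure D1:**
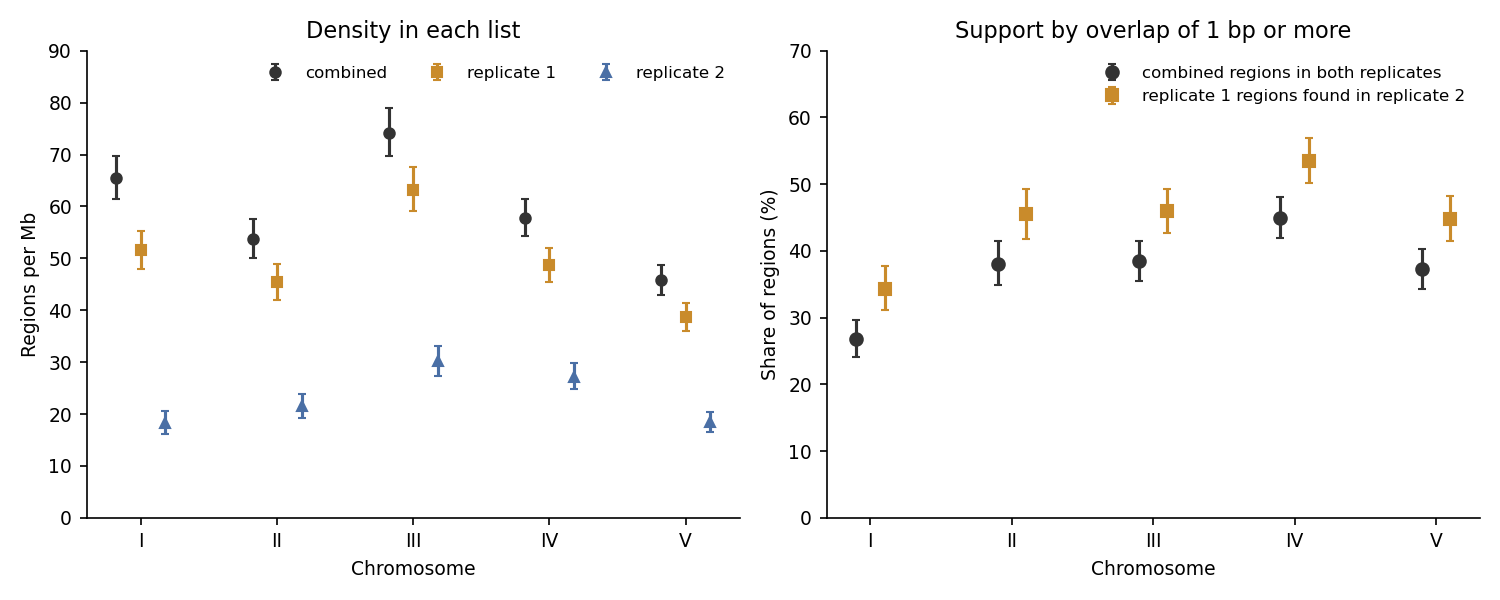
Regions per Mb of called span in each list (left, with exact Poisson 95% intervals) and share of regions supported (right, with Wilson 95% intervals) on the 5 autosomes. IV lies in the middle of the density order at 57.8 combined regions per Mb, and has the highest shares of support, 44.95% of combined regions and 53.5% of replicate 1 regions.

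Support was where chromosome IV stood apart in these values. Of its 1010 combined regions, 454 or 44.95% (Wilson interval 41.9 to 48.0%) overlapped regions of both replicates, against 37.2% of the whole list and 35.0% (33.5 to 36.6%) on the other autosomes. The difference from the other autosomes was 9.93 percentage points (Newcombe interval 6.52 to 13.4). The share was 38.5% on III, 38.1% on II, 37.2% on V and 26.8% on I. Without chromosome I, the lowest of them, the difference was 7.02 points (3.47 to 10.6).

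Regions held by replicate 1 alone were fewer on IV. These made up 351 regions or 34.8% on IV, against 41.9% of the whole list and 44.3% on the other autosomes (difference -9.50 points, -12.8 to -6.12). Regions found in neither replicate were about as common on IV as elsewhere, at 194 or 19.2%, against 20.2% of the list and 20.1% on the other autosomes. Another 11 regions or 1.09% overlapped replicate 2 alone, against 0.788% of the list. Counting overlap with replicate 1 alone, IV had 79.7% of its regions supported, 0.43 points above the other autosomes (-2.45 to 3.14). Counting overlap with replicate 2 alone, it had 46.0%, which was 10.4 points above them (6.93 to 13.8).

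Read from the replicate lists, the same difference appeared in one direction. Replicate 2 held 455 of the 850 replicate 1 regions on IV, or 53.5% (50.2 to 56.9%), against 45.2% of the whole replicate 1 list and 42.7% (41.0 to 44.5%) on the other autosomes. The difference was 10.8 points (7.03 to 14.6), and 8.07 points (4.15 to 11.9) without chromosome I. In the other direction nearly all was found: replicate 1 held 461 of the 475 replicate 2 regions on IV, or 97.1%, against 96.9% of the whole list and 97.2% on the other autosomes.

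Strength, taken from the q-value, was slightly higher on IV than on the other autosomes pooled, but close to that on III and I. The median −log10 q of combined regions was 5.92 on IV (interquartile range 3.46 to 12.3) and 5.52 on the other autosomes (3.22 to 11.6). Singly it was 5.82 on III, 5.81 on I, 5.35 on II and 4.94 on V. Of the 100 strongest combined regions of the genome 18 lay on IV, and of the 1000 strongest 183 did, or 18.3% (16 to 20.8%), against its 17.7% of the list. Of the 2000 strongest 391 did, or 19.6% (17.9 to 21.3%). Chromosome III held 204 of the 1000 strongest (20.4%) and 388 of the 2000 strongest (19.4%), against its 17.9% of the list.

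At equal strength the support on IV was higher mainly in the middle ranks. In the strongest of 10 equal classes of the combined list, every region on IV and on the other autosomes was in both replicates. In the third class 91.3% of the 127 regions on IV were (85.2 to 95.1%), against 77.0% (72.5 to 81.0%) on the other autosomes. The fourth class had 64.0% (54.9 to 72.3%) against 44.4% (39.5 to 49.3%), a gap of 19.7 points and the widest of the 10. The fifth had 31.2% against 24.6%, and the sixth 19.3% (13.0 to 27.7%) against 7.67% (5.36 to 10.9%). From the eighth class on, at most 2.22% of regions on IV were in both.

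Most of these gaps were smaller without chromosome I. Against II, III and V alone the gap was 7.40 points in the third class, 8.52 in the fourth and 8.82 in the sixth. In the fifth IV was lower (-1.91 points). The shares of II, III and V were 83.9% (79.1 to 87.8%) in the third class and 55.5% (49.7 to 61.2%) in the fourth. In the sixth it was 10.4% (7.33 to 14.7%). Each of these intervals overlapped that of IV. For recovery of replicate 1 regions in replicate 2, IV was higher than the other autosomes in 9 of 10 classes of replicate 1 strength and equal in the first, with gaps of up to 19.2 points. Averaged over classes with the weights of IV, the gap was 6.85 points for support in both replicates and 8.53 points for recovery. Without chromosome I these were 3.32 and 5.81 points. No interval was computed for these averages.

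**Figure D2:**
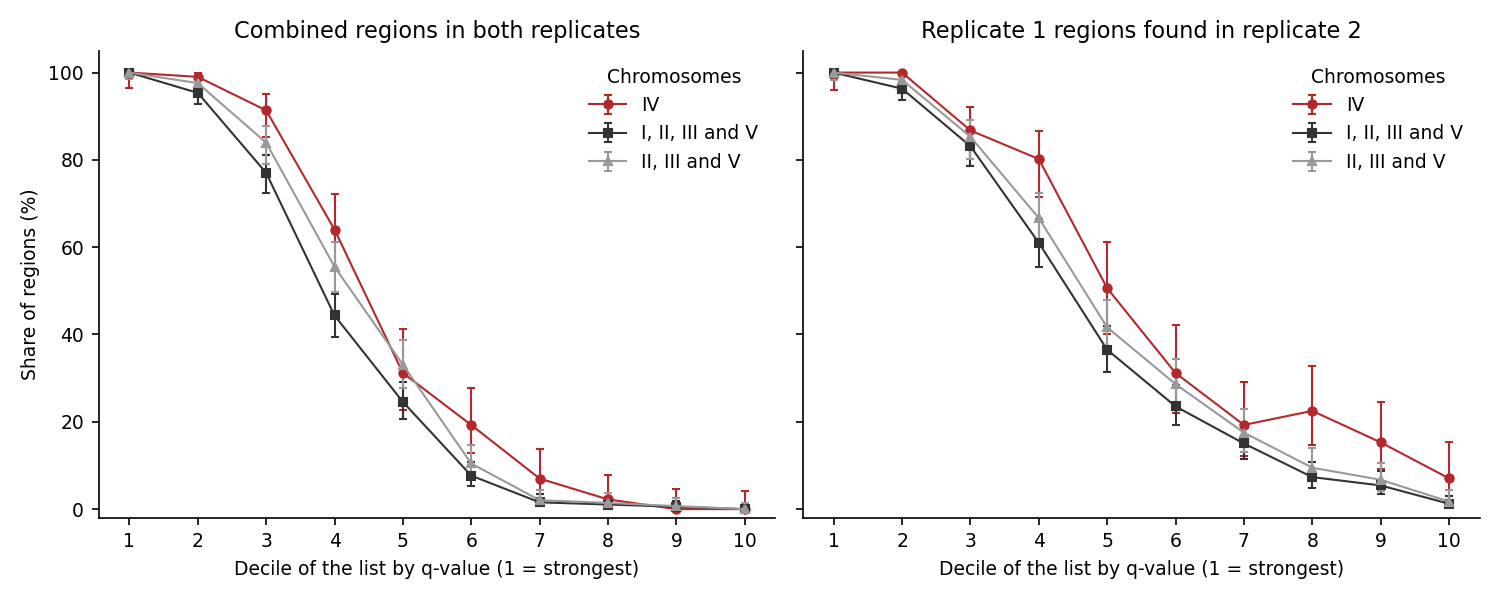
Share of regions supported, by class of strength (10 equal classes of each whole list by q-value, 1 is the strongest), for chromosome IV and for the other autosomes with and without chromosome I. Bars are Wilson 95% intervals. On the left, 64.0% of regions on IV in the fourth class were in both replicates, against 44.4% on the other autosomes. On the right, 80.2% of replicate 1 regions on IV in the fourth class were found in replicate 2, against 61.0%.

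The ratio of list lengths restates this recovery, since nearly all replicate 2 regions were in replicate 1, and is given as a description. Replicate 2 had 0.559 regions for each replicate 1 region on IV (interval 0.499 to 0.625). The ratio was 0.474 on II (0.416 to 0.541), 0.477 on III (0.424 to 0.536) and V (0.423 to 0.539), and 0.489 on X (0.431 to 0.554). These intervals all overlapped that of IV. On I it was 0.355 (0.310 to 0.408). Within IV it was 0.559 in the left arm, 0.584 in the centre and 0.516 in the right arm.

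Regions matched one to one between the replicates gave a further view, since both libraries were read at the same place. On IV 454 such pairs were found. Their median −log10 q fell from 8.98 for replicate 1 to 4.36 for replicate 2, and the median ratio of replicate 2 to replicate 1 was 0.504 (order-statistic interval 0.480 to 0.524). The ratio was 0.483 on II, 0.474 on V, 0.449 on III and 0.366 on I. The interval of IV overlapped those of II (0.462 to 0.507) and V (0.447 to 0.495), and lay above those of III (0.425 to 0.471) and I (0.351 to 0.383). The pairs were also divided into 4 classes by replicate 1 strength, which were not equal in size on each chromosome. From the strongest to the weakest they held 94, 108, 124 and 128 pairs on IV, and 76, 88, 68 and 35 on I. The ratio was highest in the weakest class, which held the most pairs on IV, II and V and the fewest on I and III. The median on IV was the highest of the 5 autosomes in each class, at 0.463, 0.451, 0.463 and 0.746 in the same order. In each class the interval of IV overlapped those of II, III and V, and lay above that of I. Pairs exist only where both lists made a call, which leaves out weak replicate 2 signal on every chromosome.

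**Figure D3:**
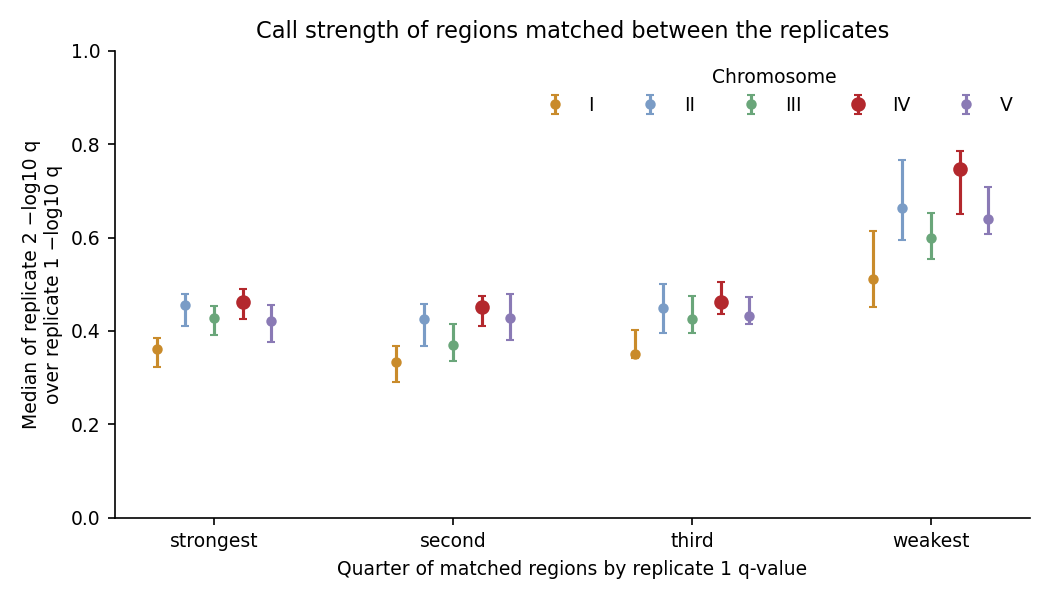
Median ratio of −log10 q in replicate 2 to that in replicate 1, for regions matched one to one, in 4 classes of replicate 1 strength. The classes are not equal in size on each autosome. Bars are 95% order-statistic intervals of the median. IV has the highest median in each class, 0.463 in the strongest and 0.746 in the weakest, with intervals that overlap those of II, III and V. Chromosome I is lowest in each class.

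Along chromosome IV, regions were most crowded in the middle and thinned out towards the right end. The 17 whole 1 Mb bins held a median of 60 combined regions, with 30 in the emptiest and 79 in the fullest. On the other autosomes 63 bins held a median of 59, and ranged from 13 to 110. The fullest bin of IV, from 8000001 to 9000000, had 79 combined, 68 replicate 1 and 43 replicate 2 regions. The 5 bins from 7000001 to 12000000 held 77, 79, 71, 68 and 74 combined regions. To the left of them the 7 bins held 50 to 72. The fewest were in the bin that starts at 3000001, and the most, in the bin that starts at 5000001, exceeded 2 of the 5 central counts.

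The right end held the 4 lowest counts but for one tie. The bins that start at 13000001, 14000001, 15000001 and 16000001 had 41, 50, 32 and 30 combined regions, and the bin from 3000001 also had 50. The emptiest, from 16000001 to 17000000, had 24 replicate 1 and 13 replicate 2 regions. Its neighbour to the left had 27 and 11, the fewest replicate 2 regions of any whole bin on IV. The partial bin from 17000001 to 17473946 added 16 combined, 13 replicate 1 and 5 replicate 2 regions. The bins of IV differed by a factor of 2.63, close to that of I (2.56) and III (2.50) and below that of II (4.61) and V (6.31).

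Support in both replicates was spread over the bins of IV rather than held by a few. Its share per whole bin ran from 34.4% to 54.1% with a median of 44.1%. The median was 27.1% on I, 39.0% on II, 40% on III and 34.7% on V. In 16 of the 17 bins the share on IV was above 34.5%, the median of the bins of the other autosomes. So it was in 11 of 13 bins on III, 8 of 15 on II, 10 of 20 on V and 2 of 15 on I. The exception on IV, from 15000001 to 16000000, had 11 of 32 regions in both (34.4%, 20.4 to 51.7%). The highest bin of IV, from 11000001 to 12000000, had 40 of 74 (54.1%, 42.8 to 64.9%). It also had the highest ratio of replicate 2 to replicate 1 regions on IV, 0.717. With 30 to 79 regions in a bin the intervals are wide, and those of the lowest and the highest bin overlap.

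**Figure D4:**
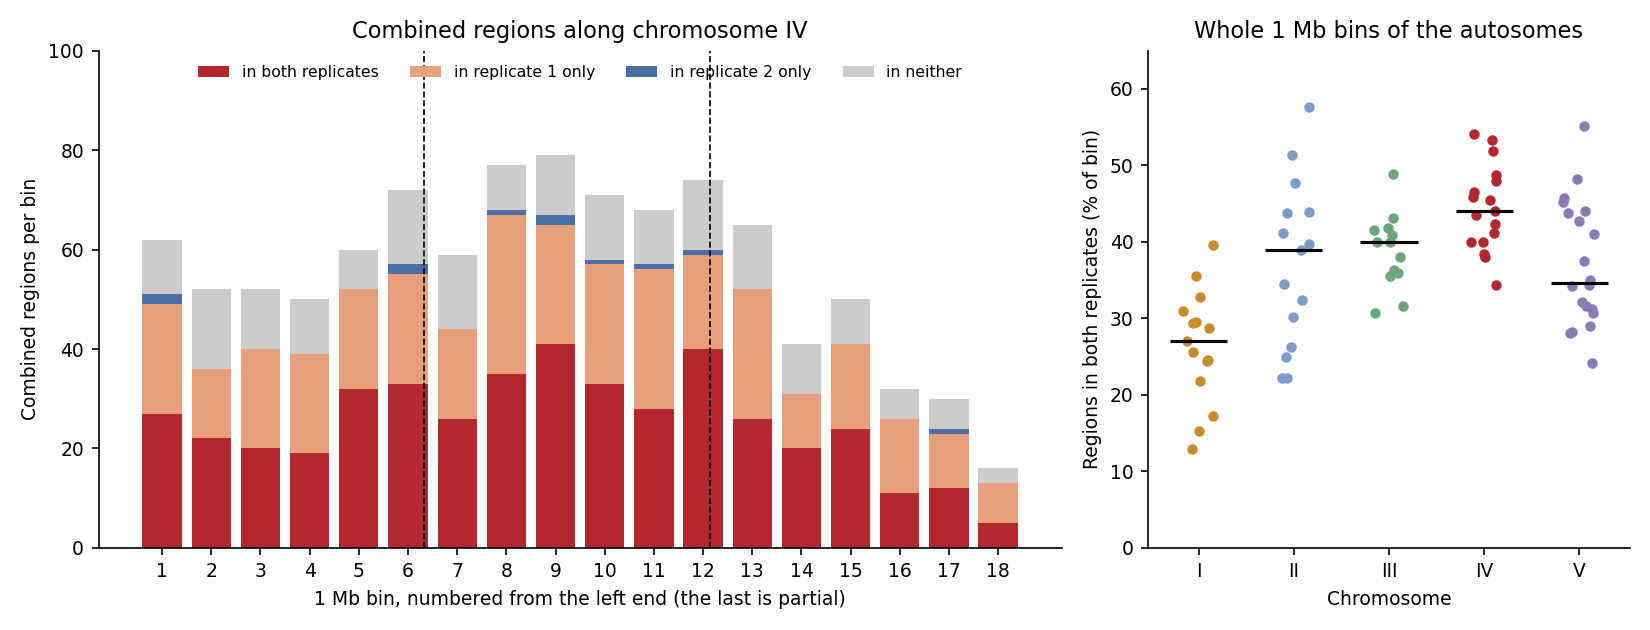
Left, combined regions in each 1 Mb bin of chromosome IV, coloured by the replicate lists they overlap. Dashed lines divide the called span into 3 equal parts. Bins 8 to 12 hold 68 to 79 regions, bin 6 holds 72, and bin 17 has the fewest of the whole bins, 30. Right, share of regions in both replicates in whole bins of each autosome, 1 point per bin with the median as a line, which is 44.1% on IV.

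The called span of IV, from 1 to 17473946, was divided into a left arm (1 to 5824648), a centre (5824649 to 11649297) and a right arm (11649298 to 17473946). The centre carried 415 combined regions, or 71.2 per Mb (64.6 to 78.4), the left arm 336 or 57.7 per Mb (51.7 to 64.2), and the right arm 259 or 44.5 per Mb (39.2 to 50.2). The centre was 1.39 times as dense as both arms together (1.23 to 1.58). That ratio was 1.54 on the other autosomes together, and ran from 1.38 on III to 1.72 on V.

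The arms of IV were unequal. The right arm had 0.771 times the density of the left (0.656 to 0.906). Replicate 1 gave 0.771 (0.645 to 0.921) and replicate 2 gave 0.712 (0.558 to 0.908). On V the ratio in the combined list was also below 1, at 0.856, but its interval (0.719 to 1.02) included 1. The right arm was the denser one on II (1.56, 1.29 to 1.88) and III (1.20, 1.02 to 1.40), and on I the interval included 1 (1.05, 0.888 to 1.24). Against the same arm of the other autosomes pooled, the left arm of IV was denser (ratio 1.24, 1.10 to 1.41) and the right arm sparser (0.850, 0.743 to 0.973). Singly, the left arm of IV was denser than that of II (1.64, 1.37 to 1.96) and V (1.45, 1.24 to 1.70), but not set apart from that of I (1.05, 0.898 to 1.24) or III (0.963, 0.821 to 1.13). The right arm of IV was sparser than those of I, II and III and denser than that of V (1.31, 1.10 to 1.56). Without chromosome I the right arm ratio was 0.876, and its interval (0.762 to 1.01) included 1. In replicate 2 the left arm ratio was 1.65 (1.37 to 1.99) and the right arm ratio 1.0 (0.811 to 1.23).

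Each part of IV had more support than the same part of the other autosomes as a group. Regions in both replicates made up 47.7% (42.9 to 52.5%) of the centre, 44.0% (38.8 to 49.4%) of the left arm and 41.7% (35.9 to 47.8%) of the right arm. The matching shares elsewhere were 36.7%, 33.1% and 34.3%. The differences were 11 points in the centre (5.72 to 16.4), 10.9 in the left arm (4.95 to 17) and 7.37 in the right arm (0.88 to 14.0). In the centre IV was also above each other autosome singly, by 6.76 points over V to 16.7 over I. In the left arm IV was above V, II and I singly, by 10.8, 11.6 and 18.6 points. It was not set apart there from III (2.96 points, -4.91 to 10.7). In the right arm II had a slightly higher share, 42.7%, and without chromosome I the right arm difference was 3.12 points (-3.60 to 10.0). Within IV the right arm differed from the left by -2.35 points (-10.3 to 5.66), an interval that includes 0. In the stronger 50% of the combined list the arms were farther apart, at 82.9% in the left and 72.9% in the right (difference -10.0 points, -19.5 to -0.67).

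**Figure D5:**
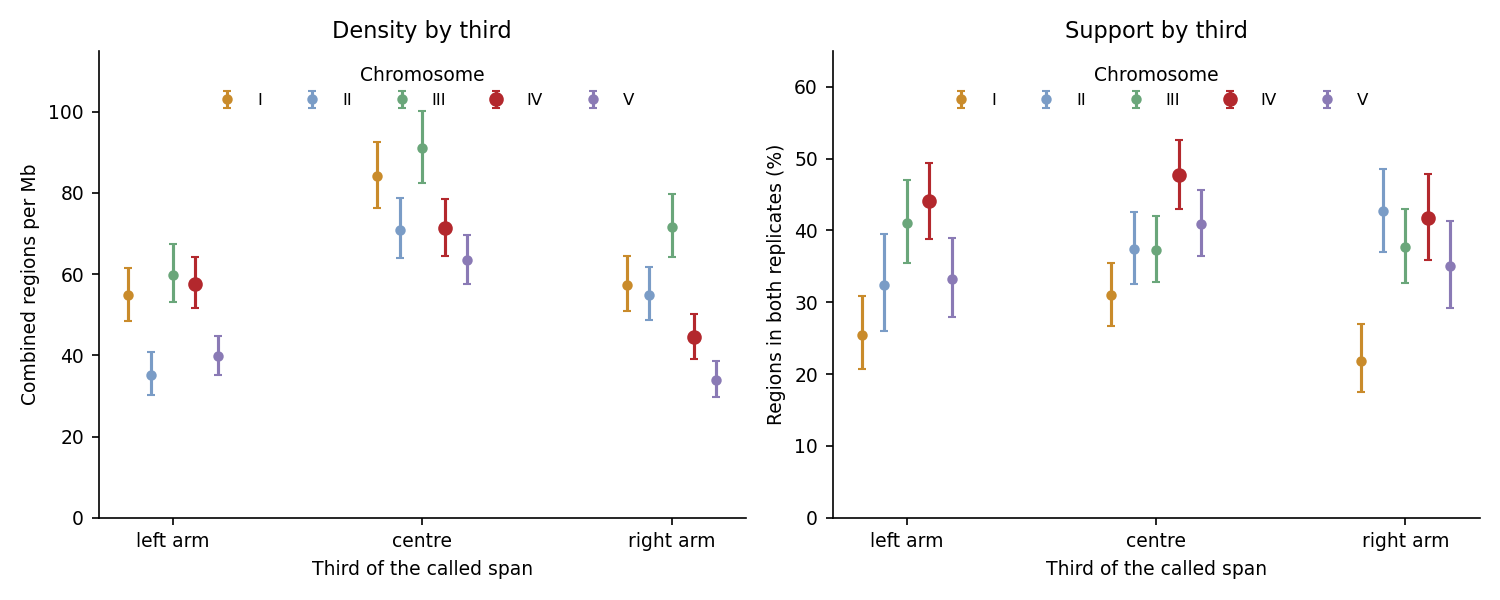
Combined regions per Mb (left, exact Poisson 95% intervals) and share of regions in both replicates (right, Wilson 95% intervals) in the left arm, centre and right arm of each autosome. On IV density is 57.7, 71.2 and 44.5 regions per Mb from left to right, and its share is the highest in the left arm (44.0%) and centre (47.7%), while II is slightly higher in the right arm.

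Widths on IV were close to those of the other autosomes. The median was 432 bp (interquartile range 316 to 620 bp) against 428 bp (320 to 610 bp). It was 428 bp in replicate 1 and 415 bp in replicate 2. By part it was 418 bp in the left arm, 441 bp in the centre and 432 bp in the right arm. Regions of 2000 bp or wider numbered 19 on IV, or 1.88%, against 2.33% of the whole list, and 16 of them were in both replicates. Regions narrower than 50 bp numbered 38, or 3.76%, against 3.2% of the list. None of these was in both replicates, while 29 were in neither. The same held on the other autosomes, where 0 of 122 such regions were in both and 82 were in neither.

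Support rose with width on IV as it did elsewhere. It was 5.35% among the 187 regions of 50 to under 300 bp, 42.9% of 396 from 300 to under 500 bp, 67% of 291 from 500 to under 1000 bp, and 79.7% of 79 from 1000 to under 2000 bp. On the other autosomes the shares in the same order were 3.63%, 33.2%, 51.5% and 63.7%. From 2000 bp on it was 84.2% (62.4 to 94.5%) on IV and 87.0% (78.6 to 92.4%) elsewhere. Regions of IV in both replicates had a median width of 560 bp, those in replicate 1 alone 386 bp and those in neither 269 bp.

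Neighbouring midpoints on IV lay a median of 8549 bp apart (interquartile range 3310 to 21710 bp), against 9359 bp on the other autosomes. The order-statistic intervals, 7797 to 10005 bp and 8826 to 9890 bp, overlapped. Spacing followed density, at 7553 bp in the centre, 9130 bp in the left arm and 10261 bp in the right arm. In replicate 1 the median on IV was 11080 bp and elsewhere 11479 bp. In replicate 2 it was 20947 bp (18094 to 24704 bp) and elsewhere 26723 bp (23922 to 29740 bp). Gaps under 2000 bp made up 15.3% of those on IV and 14.9% of the others, and 11.6% in the right arm. Runs of neighbours under 2000 bp apart took in 280 of the 1010 regions, or 27.7%. The share was 30.5% on III, 26.9% on I, 25.2% on V and 22.6% on II, so IV lay within their range. Of the runs on IV 103 were pairs and 23 were longer. Pairs and longer runs numbered 90 and 25 on I, 70 and 14 on II, 95 and 38 on III, and 91 and 18 on V. The longest on IV held 4 regions, from 3866029 to 3868930, none of them in both replicates. The longest on III also held 4, none of them in both. Those on I, II and V held 5, 5 and 6 regions, of which 1, 1 and 2 were in both.

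The emptiest stretch of IV ran from 16174620 to 16381977, with no combined, replicate 1 or replicate 2 region in 207 kb. The next was 193 kb long, from 4881027 to 5073904 in the left arm, and was overlapped by 2 replicate 1 regions and 1 replicate 2 region. That replicate 2 region reached only its right edge, since replicate 2 had no region from 4750283 to 5073831. The 161 kb from 12854910 to 13015640 in the right arm were empty in all 3 lists. Gaps of 100 kb or more numbered 16 on IV, and took up 2191 kb of its span. They numbered 26 on V (4443 kb), 13 on II (1881 kb), 6 on I (818 kb) and 4 on III (465 kb). The longest gap was 180 kb on I, 261 kb on II, 130 kb on III and 403 kb on V.

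The strongest regions of IV were spread over its whole length, the sparse right end included. Of the 10 with the lowest q-values that were in both replicates, 3 lay in the left arm, 4 in the centre and 3 in the right arm, and 6 were wider than 2000 bp. The strongest ran from 17276728 to 17281699 in the last, partial bin. It was 4972 bp wide, the widest region of IV. Its q-values were 6.73e-154 (combined), 1.88e-105 (replicate 1) and 8.80e-42 (replicate 2), and its ranks in these lists were 5, 12 and 20. A narrow region of 512 bp nearby, from 17249616 to 17250127, was the sixth strongest of IV, with ranks 62, 40 and 33.

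The second, in the right arm from 14032352 to 14034978 (2627 bp), had ranks 11, 18 and 9 in the same order of lists. Both of the next lay in the centre within 100 kb of each other, from 10934973 to 10937405 (2433 bp, ranks 14, 14 and 18) and from 11025586 to 11028359 (2774 bp, ranks 32, 48 and 54). The fifth, from 2601877 to 2602914 in the left arm, was 1038 bp wide and ranked 35, 36 and 39. All 5 were among the 100 strongest regions of each list.

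The others among the 10 included 2 more in the centre, from 11592688 to 11594730 (2043 bp) and from 8431551 to 8433244 (1694 bp). The left arm had a narrow region of 617 bp from 4049424 to 4050040 (ranks 64, 46 and 64). The tenth, from 5561172 to 5564651, was 3480 bp wide, behind only 2 others on IV in width. Its ranks were 68, 111 and 555, and 2 replicate 2 regions overlapped it.

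Ranks in the lists of 5713, 4749 and 2247 regions are not on 1 scale. The other 5 regions over 2000 bp among the 10 ranked between 9 and 97 in the replicate lists. The second widest of IV, from 9438679 to 9442800 (4122 bp), had ranks 211, 265 and 2117, with q-values of 4.03e-41, 7.62e-27 and 0.0075. It overlapped 2 regions in each replicate. The region from 2772092 to 2775296 (3205 bp) ranked 69, 170 and 960 and overlapped 2 replicate 1 and 3 replicate 2 regions. The strongest regions of the centre and right arm not yet named, from 6790305 to 6790916 (612 bp, ranks 100, 114 and 63) and from 15646334 to 15647025 (692 bp, ranks 77, 88 and 89), were under 1000 bp wide. The latter lay in the whole bin with the fewest replicate 2 regions.

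The regions of IV missing from a list were not among the strongest. Combined regions in neither replicate were weak, and the strongest of them ranked 2892 of 5713 and was 40 bp wide (from 945786 to 945825, q-value 3.96e-06). Of the replicate 1 regions on IV, 38 or 4.47% had no combined region, against 3.94% of that list. The strongest of the 38 ranked 2634, and was 2 bp wide (from 14058593 to 14058594). In all 23 of them were narrower than 50 bp, the widest was 381 bp, and replicate 2 held none. Among missing replicate 1 regions 11 of 22 on I and 8 of 34 on II were that narrow. So were 7 of 23 on III and 10 of 34 on V. Replicate 2 held 4 of those missing on II, and 1 each of those on I, III and V. Of the replicate 2 regions on IV 3 or 0.63% were missing, against 1.38% of that list, and the strongest, from 13549274 to 13549667, ranked 866. On I and III regions of rank 1 and 2 in replicate 1 were missing from the combined list. On II and V the strongest missing replicate 1 regions ranked 15 and 1937.

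The combined list draws on both replicates, and how it was made is not given in the sources used here. Support of a combined region is thus not independent of its being listed. The higher support on IV rests on 1 pair of libraries, and whether it would recur in others was not tested.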

How the data were processed

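The authors deposited 3 lists of regions called with PeakSeq, per the file headers: 1 for each HAM-1 ChIP replicate and 1 described as combined. Each region carries the authors' q-value, a p-value adjusted for multiple testing, and all are under 0.01. Header comments record a move of positions to WS220 from a build they do not name. No region on IV was listed there as changed. The sources used here give no aligner, caller settings, use of the inputs or read totals.

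A region belonged to the bin or part that held its midpoint. The called span ended at the last called base in any list. Strength was the rank by q-value within a list. Spacing was measured between midpoints. Named regions were chosen by rank, width, part and support. The members, gene numbers and rules were chosen with earlier results of these data known. Nothing in the labels says whether replicates came from separate cultures. Intervals were Wilson (shares), Newcombe (differences), exact Poisson (densities), log-normal Poisson (ratios) and order-statistic (medians). The code was tested on simulated lists with planted overlaps. Python 3.11.15, numpy 2.4.6, pandas 2.3.3, scipy 1.17.1 and matplotlib 3.10.9 were used. Alternatives covered the q-value limit, narrow regions, overlap, comparators, arm definition, replicates, list length, strength, spacing and gene number.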

Additional observations from a re-analysis of the deposited data

How the results depend on the processing

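Of 59 recomputed values, 42 stayed within the interval of the reported value, 17 moved outside it and 0 reversed a difference whose interval excluded equality. The right minus left arm support (-2.35 points), whose interval includes 0, was 1.12 points with narrower arms (the outer 25% of the span on each side) and -10.0 points (-19.5 to -0.67) in the stronger 50% of the list, where the interval excludes 0. The density ratio of IV to the other autosomes (0.993) was 1.26 in the replicate 2 list and 1.01 in the replicate 1 list, and 1.14 per protein-coding gene. Support in both replicates (44.95%) was 39.1% with q-values under 0.001, 78.5% in the stronger 50% of the list and 39.4% under a 50% reciprocal overlap, and ran from 46.0% to 79.7% when a single replicate counted. The support difference (9.93 points) ran from 0.43 points with replicate 1 as the only support to 10.4 with replicate 2. Matched on strength without chromosome I, a choice made after seeing the data, it was 3.32 points, and the recovery difference (10.8) was 5.81. Neither has an interval. Recovery among the 2247 strongest replicate 1 regions differed by 6.21 points. Median width (432 bp) was 467 bp with q-values under 0.001 and 527 bp in the stronger 50%, and 415 to 428 bp in the replicate lists. Median spacing (8549 bp) was 11577 and 18335.5 bp in the same 2 shorter lists, and 11080 to 20947 bp in the replicate lists, since fewer regions lie farther apart. The centre to outer ratio ran from 1.39 to 1.56 and the right to left arm ratio from 0.685 to 0.782. No paired analysis was possible because lists exist for the ChIP libraries alone here. A region not called at an unknown depth is not shown to be unbound.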
